A study of Mus musculus with 31 samples.

Results

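Pik3ap1 encodes an adaptor protein of B cells, also called BCAP, that couples the B cell receptor to phosphoinositide 3-kinase. The region analysed was chr19:41320001-41490000 of the mouse genome (mm9), 170 kb that the selection rule gives as holding Pik3ap1. It was chosen by measured values: the binding of NIPBL and of Rad21 was lower in stimulated than in unstimulated splenic B cells in its 10 kb bin chr19:41410001-41420000, called the central bin here. All deposited peaks that overlap the region were its members, 2123 of 17061930 peaks in 26 lists. Of these, 123 were among the 20000 strongest peaks of their library, called top peaks here (520000 in all libraries together).

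Chromatin immunoprecipitation followed by sequencing (ChIP-seq) had been done in AID-deficient C57BL/6 mouse B cells, in a study of cohesin-mediated loop extrusion in class switching of the immunoglobulin heavy chain genes. AID is the enzyme that starts class switching, and every group lacked it. Splenic B cells were stimulated for 48 h (anti-CD40/IL-4), and cells of the mouse B lymphoma line CH12F3 for 24 h (anti-CD40/TGF-β/IL-4). NIPBL was mapped in stimulated (n = 3) and unstimulated (n = 3) splenic B cells and in stimulated (n = 2) and unstimulated (n = 2) CH12F3 cells. Rad21 was mapped in stimulated (n = 3) and unstimulated (n = 3) splenic B cells, in stimulated cells named i3CBEs (n = 3), and in stimulated (n = 4) and unstimulated (n = 3) CH12F3 cells. The titles call the line CH12F3NCdel; neither this name nor i3CBEs is expanded in the labels, which give CH12F3 as the source of both. The 5 input samples were not analysed here.

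Cohesin is a ring-shaped complex that holds DNA and can extrude it into loops. NIPBL is the factor that loads cohesin onto chromatin and drives its movement, and Rad21 is the subunit that closes the ring. NIPBL is often found at active promoters and enhancers, whereas Rad21 gathers where the insulator protein CTCF stops cohesin. Pik3ap1 itself carries phosphorylation sites that recruit the regulatory subunit of the kinase once the receptor is engaged.

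Depth is unknown, since only peaks and no reads are given per library. NIPBL lists held 890499 to 1332862 peaks, and the Rad21 lists of i3CBEs and CH12F3 together 42659 to 271662. Splenic Rad21 lists were uneven, with 149409, 1166191 and 1236385 peaks in the stimulated replicates and 292078, 1177389 and 152152 in the unstimulated ones. The 20000 top peaks of every library were therefore compared, as the percent of each 10 kb bin that they cover; these covered 7.04, 15.1 and 9.75 Mb of the genome in stimulated and 15.5, 15.2 and 8.97 Mb in unstimulated splenic Rad21 replicates. Peaks on the Y chromosome made up 0.00568% or less of each CH12F3 and i3CBEs list and 0.0229% to 0.0434% of the splenic lists other than stimulated Rad21 replicate 2, which had 0.0103% and stood apart. Values without that library are given beside the splenic Rad21 counts, coverages, shared bases and constant sites below.

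Gene order was taken from RefSeq for GRCm38.p6, a build other than that of the peaks. There Pik3ap1 (gene ID 83490) lies on the minus strand of chromosome 19, with Tm9sf3 as the neighbour at lower coordinates and Lcor as the protein-coding neighbour at higher coordinates. No gene annotation of mm9 was used, so whether a bin or peak below lies in a promoter, exon or intron of Pik3ap1 was not worked out. The start region of the gene, from 250 bases before to 50 after its RefSeq start at GRCm38.p6 chr19:41385053-41385352 (minus strand), is shown to identify the gene and its base composition; its position relative to the mm9 peaks was not analysed here. Capitals mark an E box (CACGTG) and the core of the motif of PU.1 (GAGGAA), a transcription factor of B and myeloid cells.
Pik3ap1 start region: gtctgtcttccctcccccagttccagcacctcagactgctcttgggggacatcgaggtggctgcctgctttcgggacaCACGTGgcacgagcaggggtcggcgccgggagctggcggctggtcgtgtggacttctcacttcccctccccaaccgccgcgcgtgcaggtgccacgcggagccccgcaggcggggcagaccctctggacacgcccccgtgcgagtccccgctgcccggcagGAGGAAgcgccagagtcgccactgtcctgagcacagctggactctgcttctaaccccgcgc
These 300 bases were 69.7% G or C and held 26 CpG, against medians of 52.7% and 7 over the 32851 RefSeq start regions of the same length. Searched on both strands, CACGTG matched 1 time, as it did at least once in 7.15% of all start regions, and GAGGAA 1 time, as in 28.3%; the motifs did not overlap. A GC box (GGGCGG, in 35.7% of start regions) was not found in this window.

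In resting spleen the region held one very strong NIPBL site. The bases covered by top NIPBL peaks in 2 or more unstimulated splenic libraries fell into 7 stretches, and the central one, chr19:41413587-41414319, lay in the central bin. Its peak had an authors' fold enrichment of 9.98, 7.40 and 10.5 in stimulated splenic replicates 1 to 3, against 57.4, 49.9 and 31.9 in unstimulated ones. In its own list it ranked 3202, 6403 and 3993 by p-value in stimulated cells, against 70, 81 and 227 in unstimulated cells. It was the strongest NIPBL peak of the region in all 3 unstimulated splenic lists and still a top peak in all 3 stimulated ones. Fold and rank are the authors' values for a peak within its own list, so between lists they are set side by side as a description only.

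The same base pairs carried far weaker peaks elsewhere than in resting spleen. Over the central site NIPBL had a fold of 5.42 and 4.84 in stimulated CH12F3 cells, against 4.72 and 9.11 in unstimulated CH12F3 cells. In none of these 4 lists was it a top peak, but the best rank in unstimulated CH12F3 cells, 22908, lay just past the limit. The fold of 9.11 lay within the range of stimulated spleen, 7.40 to 10.5. Peak names give a control for NIPBL replicate 2 of both CH12F3 groups and for all Rad21 lists. Those of the other NIPBL lists, all splenic ones included, give none. The part of this in the folds was not tested. Rad21 had a fold of 3.08, 3.71 and 3.23 there in stimulated spleen, with ranks of 147020, 207800 and 659840, against 6.52, 8.78 and 7.67 in unstimulated spleen, with ranks of 24401, 16157 and 7289. No i3CBEs or unstimulated CH12F3 list had a Rad21 peak over it, and 1 of 4 stimulated CH12F3 lists had one that touched the site, with a fold of 3.02.

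**Figure D1:**
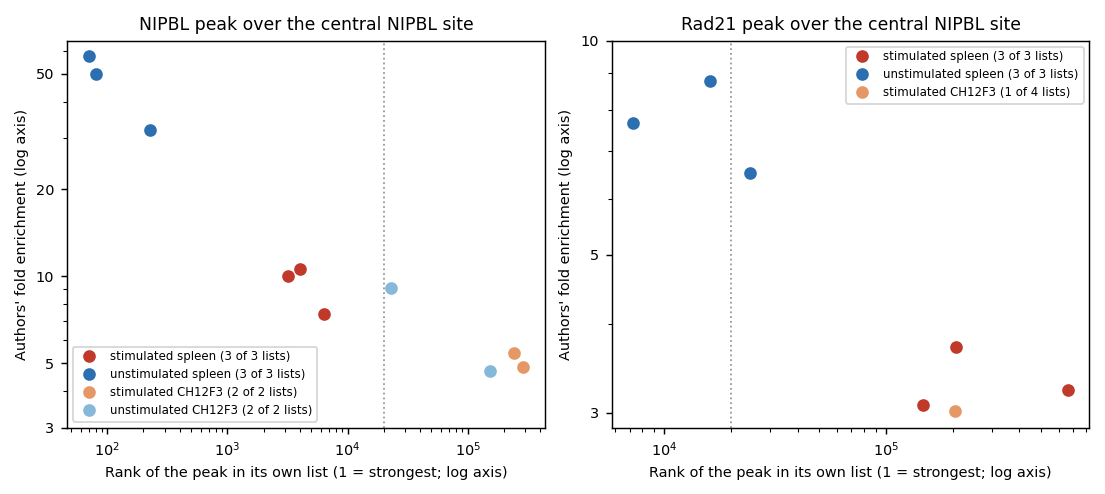
Authors' fold enrichment (log axis) of the peak over the central NIPBL site against its rank in its own list (log axis), 1 point per library, for NIPBL (left) and Rad21 (right); the dotted line marks rank 20000 and libraries without a peak there are not drawn. The 3 unstimulated splenic NIPBL libraries stand at ranks 70 to 227, and the 3 stimulated ones at 3202 to 6403.

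Coverage of the central bin by top NIPBL peaks was 7.17%, 4.80% and 3.93% in stimulated spleen, against 22.2%, 19.2% and 19.8% in unstimulated spleen (5.30 ± 1.68% and 20.4 ± 1.62%, SD, n = 3 each). Coverage by top Rad21 peaks was 0% in all 3 stimulated splenic libraries, against 20.6%, 17.0% and 26.9% in unstimulated ones (21.5 ± 5.04%, SD, n = 3). These values chose the region and are a description: for both antibodies the groups did not overlap, and stimulated minus unstimulated came to -15.1 percentage points for NIPBL and -21.5 for Rad21. In CH12F3 and i3CBEs no top peak of either antibody lay in the central bin in any of 14 libraries. Across the genome, 6046 bins were tested for both antibodies, and 28 bins were called lower in stimulated spleen for both. They made up 12.3% of the 227 bins called lower for NIPBL and 4.61% of the 608 called lower for Rad21. These counts were not stable. The 608 fell to 0 without each of the stimulated splenic Rad21 libraries in turn, and the 227 to 0 with the replicate number as a block.

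The lower coverage in stimulated spleen was not limited to the central bin. In the neighbouring bin chr19:41400001-41410000, NIPBL coverage was 0% in the 3 stimulated splenic libraries, against 21.7%, 22.1% and 12.9% in unstimulated ones. Rad21 coverage of that bin was 0% in all stimulated libraries, against 0%, 16.1% and 21.4% in unstimulated ones, so these groups overlapped through unstimulated replicate 1. In chr19:41420001-41430000, NIPBL covered 4.47%, 3.11% and 0% in stimulated spleen, against 16.4%, 10.3% and 4.11% in unstimulated spleen, and stimulated replicate 1 lay above unstimulated replicate 3. Rad21 covered none of it in stimulated spleen, against 7.49%, 0% and 5.15% in unstimulated spleen.

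At ascending coordinates the values of chr19:41440001-41450000 depended on which peaks were counted. Top Rad21 peaks covered 4.76%, 6.74% and 4.46% in stimulated spleen, against 11.6%, 42.0% and 27.1% in unstimulated spleen, and the groups did not overlap; without stimulated replicate 2 the mean of the stimulated group was 4.61% in place of 5.32%. Top NIPBL peaks covered 5.57%, 0% and 0% of it in stimulated and 0.510%, 0% and 0% in unstimulated spleen. All deposited NIPBL peaks, in contrast, covered 17.8%, 22.6% and 29.0% in stimulated spleen, against 46.3%, 40.3% and 45.7% in unstimulated spleen, lower without overlap. All deposited Rad21 peaks covered 14.9%, 55.9% and 44.3% in stimulated spleen, against 77.4%, 70.9% and 38.2% in unstimulated spleen, and these groups overlapped, with or without stimulated replicate 2. In chr19:41450001-41460000 top Rad21 peaks covered 9.83%, 0% and 10.5% in stimulated spleen, against 18.3%, 17.5% and 23.5% in unstimulated spleen, again without overlap. Top NIPBL peaks covered 0%, 14.2% and 10.7% of that bin in stimulated spleen, against 13.3%, 10.4% and 13.5% in unstimulated spleen, with overlapping groups. Top Rad21 peaks also covered chr19:41430001-41440000 at 0% in every stimulated splenic library, against 0%, 19.3% and 6.67% in unstimulated ones, and chr19:41460001-41470000 at 0% in every stimulated one, against 2.77%, 1.97% and 7.05%.

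**Figure D2:**
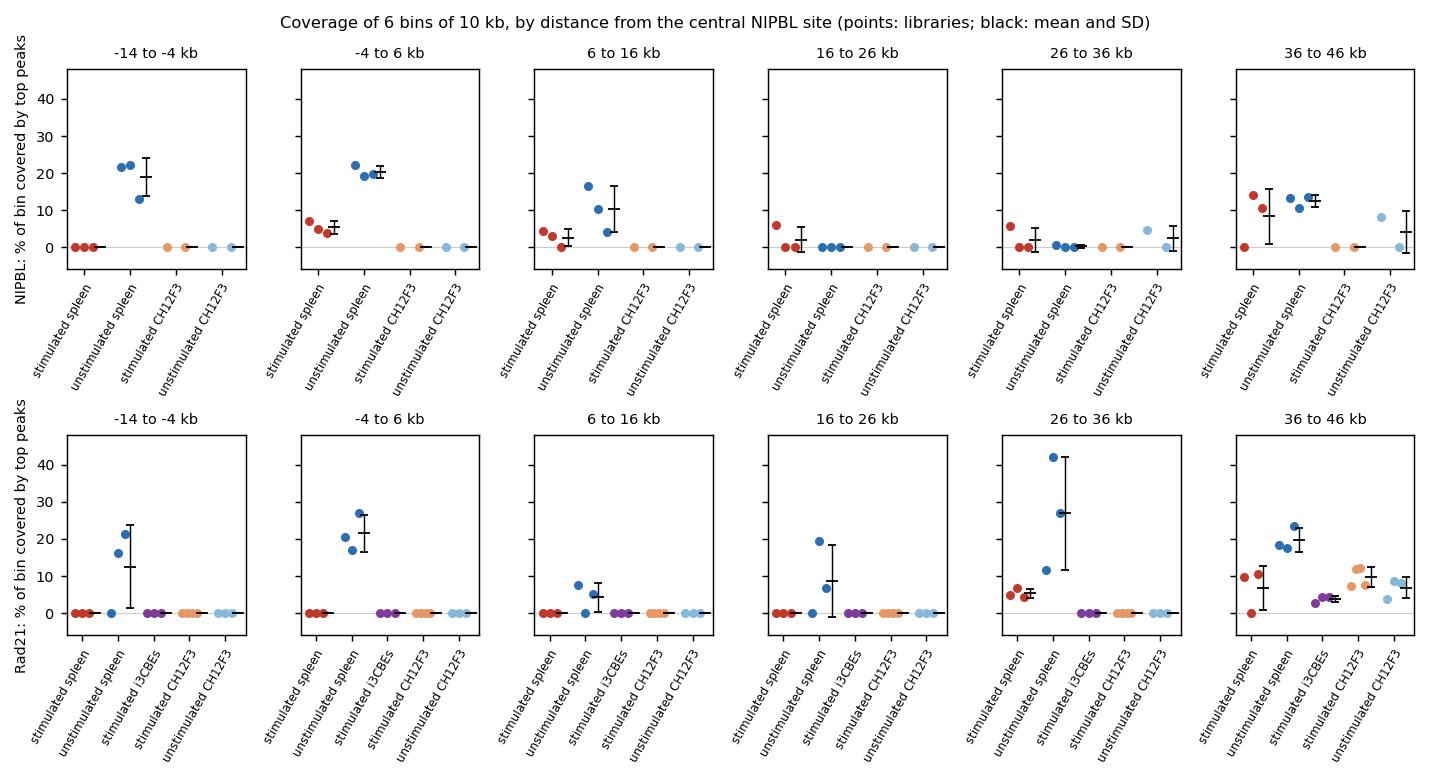
Percent of 6 adjacent 10 kb bins covered by top NIPBL peaks (upper row) and top Rad21 peaks (lower row), by distance in kb from the central NIPBL site; points are libraries and black marks the mean and SD of each group. The panel from -4 to 6 kb is the central bin, where stimulated splenic Rad21 libraries are at 0% and unstimulated ones at 17.0% to 26.9%.

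One NIPBL site had nearly the same coverage in both splenic groups. At chr19:41337495-41338877, in the bin chr19:41330001-41340000, coverage of the bin was 12.5%, 13.0% and 12.4% in stimulated spleen, against 13.1%, 13.8% and 13.4% in unstimulated spleen, a mean difference of -0.78 percentage points. The groups did not overlap, but the difference was small beside that of the central bin. This site was the strongest NIPBL peak of the region in all 3 stimulated splenic lists, with folds of 10.7, 9.85 and 11.0 in stimulated spleen, against 17.6, 16.2 and 12.3 in unstimulated spleen. Its ranks were 2611, 2379 and 3687 in stimulated spleen, against 3937, 3912 and 5459 in unstimulated spleen.

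The other NIPBL stretches of resting spleen took different courses. At chr19:41418771-41420411 the fold was 6.20, 5.36 and 6.51 in stimulated spleen, against 10.5, 15.0 and 10.5 in unstimulated spleen, and it was a top peak in 0 of 3 stimulated and 3 of 3 unstimulated lists. At chr19:41406040-41407329 the fold was 6.56, 3.66 and 3.71 in stimulated spleen, against 12.1, 9.61 and 8.35 in unstimulated spleen. At chr19:41428796-41429639 the fold was 9.63, 8.68 and 5.88 in stimulated spleen, against 9.18, 10.9 and 7.05 in unstimulated spleen, so the groups overlapped. At chr19:41458945-41460121 the fold was 6.23, 6.87 and 9.62 in stimulated spleen, against 15.4, 15.7 and 13.7 in unstimulated spleen, without overlap. The remaining stretch, chr19:41405083-41405676, had folds of 4.04 to 6.00 in stimulated and 5.96 to 9.61 in unstimulated spleen.

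Of the 17 bins of the region, 15 held a top peak in at least 1 library. In the comparison of stimulated with unstimulated splenic NIPBL libraries, 7 bins had coverage in 2 or more libraries, and 2 of them, chr19:41400001-41410000 and the central bin, were called lower by limma with Benjamini-Hochberg adjustment over all bins; 1.24% of 18332 bins tested in the genome were called lower. Groups did not overlap in 3 of the 7, where 7.65% of bins in the genome were lower without overlap. For Rad21 in spleen, 10 bins passed and 1, the central bin, was called lower (2.69% of 22603 bins in the genome), while 4 were lower without overlap (9.76% in the genome). Because this contrast chose the region, nothing is read from these counts. Leaving out any stimulated splenic Rad21 library, replicate 2 included, ended the Rad21 call, although the difference in the central bin was -21.5 percentage points without replicate 2 as well. In chr19:41450001-41460000, where replicate 2 was at 0%, the difference was -9.60 without it and -13.0 with it. Leaving out unstimulated Rad21 replicate 1 gave 2 called bins. The NIPBL count was 1 without any one of the stimulated libraries or without unstimulated replicate 1 or 2, and 0 with the replicate number as a block.

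Over the whole region, top NIPBL peaks covered 2.10%, 2.09% and 1.59% in stimulated spleen, against 5.21%, 4.58% and 3.99% in unstimulated spleen. Top Rad21 peaks covered 1.46%, 2.07% and 1.86% in stimulated spleen, against 5.21%, 8.62% and 8.14% in unstimulated spleen. Divided by the coverage of the whole genome by the same peaks, Rad21 in the region stood at 5.49, 3.61 and 5.03 times the genome in stimulated spleen, against 8.88, 14.9 and 24.0 times in unstimulated spleen. The same ratio for NIPBL was 4.45, 3.88 and 2.87 in stimulated spleen, against 8.80, 10.3 and 9.05 in unstimulated spleen. The groups did not overlap in any of these 4 measures of top peaks, all of which follow from the contrast that chose the region. Without stimulated Rad21 replicate 2, mean Rad21 coverage in stimulated spleen was 1.66% in place of 1.80%, and the mean ratio 5.26 in place of 4.71. With all deposited peaks, Rad21 covered 4.60%, 28.7% and 17.7% of the region in stimulated spleen, against 33.0%, 37.6% and 14.3% in unstimulated spleen, so there the groups overlapped, also without replicate 2.

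Every deposited peak, without a limit on rank, drew a broad hill of Rad21 in spleen. All peaks together covered the central bin at 7.07%, 60.1% and 34.0% in stimulated splenic Rad21 replicates 1 to 3, against 81.9%, 83.6% and 36.1% in unstimulated ones. The groups overlapped through stimulated replicate 2, and without it they did not. Unstimulated replicates 1 and 2 were covered nearly alike, with lists of 292078 and 1177389 peaks. Set beside lists of like length, stimulated replicate 1 (149409 peaks) covered 7.07% where unstimulated replicate 3 (152152 peaks) covered 36.1%, and stimulated replicates 2 and 3 (1166191 and 1236385 peaks) covered 60.1% and 34.0% where unstimulated replicate 2 (1177389 peaks) covered 83.6%. How far list length sets the values was not tested. NIPBL coverage by all peaks in the central bin was 29.2%, 22.2% and 35.2% in stimulated spleen, against 43.6%, 39.0% and 48.6% in unstimulated spleen, without overlap.

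**Figure D3:**
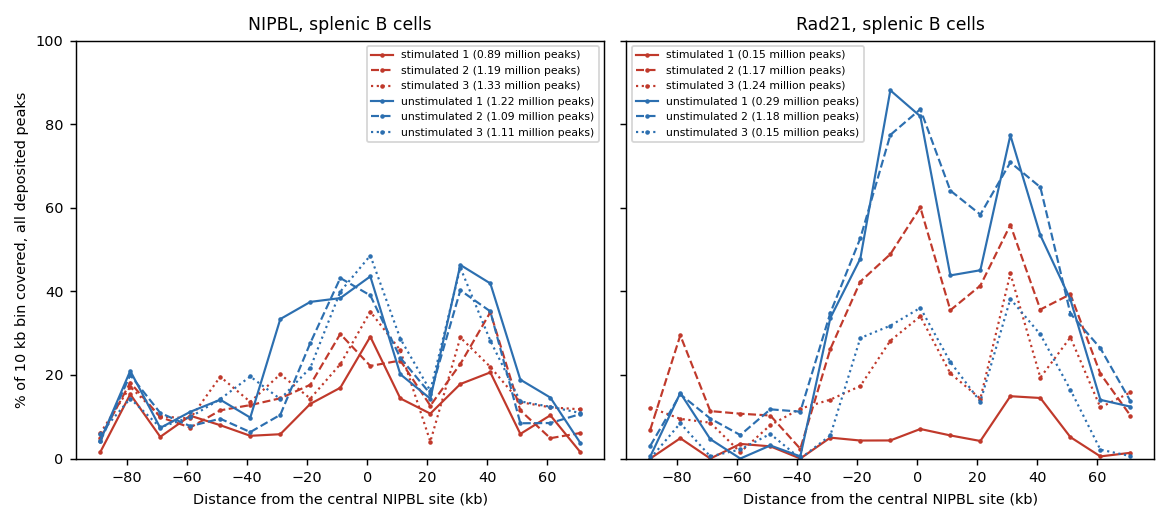
Percent of each 10 kb bin covered by all deposited peaks along the region, by distance of the bin's centre from the central NIPBL site, for NIPBL (left) and Rad21 (right) in splenic B cells; each line is 1 library, with its number of peaks in the legend. In the bin of the central site the 2 unstimulated Rad21 libraries with 292078 and 1177389 peaks reach 81.9% and 83.6%.

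NIPBL and Rad21 shared part of their ground in resting spleen. Part of the shared bases lay in the central bin, and the splenic values of both antibodies chose the region. The bases and shares below, and their fall after stimulation, are therefore a description only. Bases covered by top peaks in 2 or more libraries numbered 7614 for NIPBL and 12098 for Rad21, and 3439 bases belonged to both, 45.2% of the NIPBL bases and 28.4% of the Rad21 bases. In stimulated spleen they numbered 3072 for NIPBL and 2992 for Rad21, with 643 in common, 20.9% of the NIPBL and 21.5% of the Rad21 bases. Without stimulated Rad21 replicate 2 there were 2323 Rad21 bases, all of them also in unstimulated spleen, and again 643 shared with NIPBL (27.7% of the Rad21 bases). With it, all 2992 Rad21 bases of stimulated spleen, and 2941 of the 3072 NIPBL bases (95.7%), also belonged to those of unstimulated spleen. They made up 24.7% of the Rad21 and 38.6% of the NIPBL bases of unstimulated spleen.

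Rad21 sites of the region, built by merging the top peaks of all 16 Rad21 libraries, numbered 15, and 10 of them were found in 2 or more libraries. At the limit for top peaks, 3 merged sites, called constant here, were found in every cell type. The sites chr19:41365182-41366409 and chr19:41391480-41392850 had a top peak in all 16 libraries, and chr19:41458173-41460277 in 15, missing only stimulated splenic replicate 2. At chr19:41458173-41460277 no Rad21 peak ranked better than 11901, and ranks reached 19407 in i3CBEs, so its count depends on the limit. Top peaks spanning at least 50% of the site were in 2 libraries at chr19:41365182-41366409, and in 5 at each of the other 2. At chr19:41391552-41392764, the part shared in resting spleen, the fold was 5.27, 11.9 and 6.73 in stimulated spleen, against 11.0, 15.5 and 9.46 in unstimulated spleen; it ranged over 6.23 to 9.78 in i3CBEs, 7.65 to 14.8 in stimulated CH12F3 and 9.01 to 11.3 in unstimulated CH12F3 cells. At chr19:41365542-41366130 the fold was 5.26, 18.0 and 7.90 in stimulated spleen, against 23.8, 13.9 and 6.16 in unstimulated spleen, so here the splenic groups overlapped. Without stimulated replicate 2 the groups did not overlap at the site chr19:41391552-41392764, and still overlapped at chr19:41365542-41366130. NIPBL was not among the top peaks at either of these sites. At chr19:41365542-41366130, 1 of 3 stimulated and 0 of 3 unstimulated splenic NIPBL lists held any peak. At chr19:41391552-41392764 all 6 splenic NIPBL lists held a peak of low rank, with folds of 2.56 to 3.71 in stimulated and 3.72 to 4.62 in unstimulated spleen, and so did all 4 CH12F3 lists. At the constant site chr19:41458173-41460277, NIPBL top peaks were present in 2 of 3 stimulated and 3 of 3 unstimulated splenic lists.

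A second set of Rad21 sites had top peaks only in spleen or only in unstimulated spleen. The site chr19:41445463-41447517 had one in all 6 splenic libraries and in none of the other 10. Its fold was 5.26, 9.12 and 6.95 in stimulated spleen, against 23.8, 15.8 and 11.2 in unstimulated spleen. Weaker peaks were present in CH12F3 and i3CBEs as well, at folds of 4.68 to 4.80 in i3CBEs, 3.41 to 6.85 in stimulated and 5.37 to 6.11 in unstimulated CH12F3 cells, with ranks of 20148 to 76691, so the limit at rank 20000 sets their absence. Another 4 sites had top peaks in 2 of 3 unstimulated splenic libraries and in no other library: chr19:41402229-41403914, chr19:41412587-41414284, chr19:41417945-41420749 and chr19:41438067-41442416. The second of these overlaps the central NIPBL site and the third overlaps the NIPBL stretch at chr19:41418771-41420411. All 3 unstimulated splenic lists held a peak over the shared parts, so the limit at rank 20000 sets the count of 2. Stimulated spleen held weaker peaks, in 2 of 3 lists at chr19:41402804-41403838 (best rank 212147). At chr19:41413470-41414207, chr19:41418665-41420515 and chr19:41440682-41442082 they were in 3 of 3 (lowest rank numbers 147020, 26109 and 28823). Lists differ in length, and rank 147020 lay near the end of the 149407 ranked peaks of stimulated replicate 1. At chr19:41402804-41403838, the part shared in resting spleen of the first of these 4 sites, no CH12F3 or i3CBEs list held a Rad21 peak of any rank. At the part chr19:41418665-41420515 of the third, in contrast, 0 of 3 i3CBEs lists, 4 of 4 stimulated and 3 of 3 unstimulated CH12F3 lists held a weaker one, with folds of 3.59 to 3.98 in stimulated and 3.26 to 3.72 in unstimulated CH12F3 cells. The fourth site had a part, chr19:41440682-41442082, with a peak in 2 of 3 i3CBEs, 4 of 4 stimulated and 3 of 3 unstimulated CH12F3 lists, and another, chr19:41438958-41439624, with none in any of them.

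**Figure D4:**
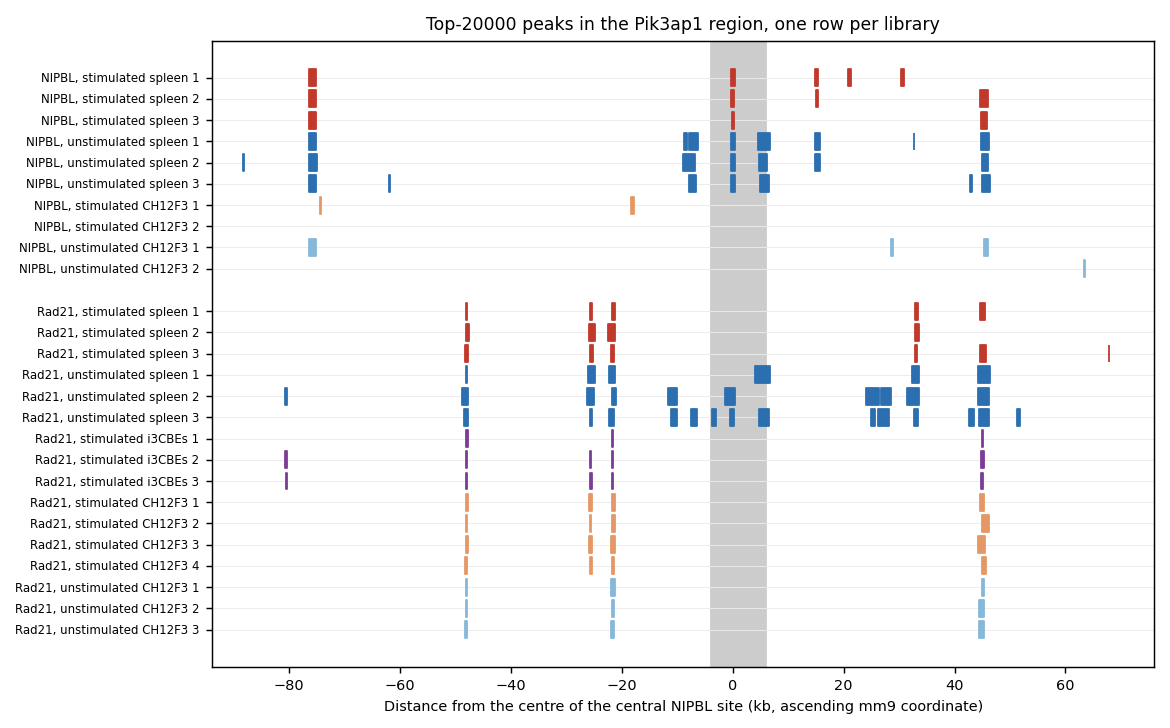
Top peaks of the region in each of the 26 libraries, 1 row per library, by distance from the centre of the central NIPBL site; the grey band is the central bin. The constant Rad21 sites run through all or all but 1 of the 16 Rad21 rows, whereas the band holds Rad21 peaks in the 3 unstimulated splenic rows only.

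The response to stimulation in CH12F3 cells had no part in the choice of the region. For Rad21 none of the 4 bins that passed the filter was called by limma at an adjusted p under 0.05 (0% of 21545 bins in the genome were called higher and 0% lower), and 1 of the 4 had an unadjusted p under 0.05. That bin, chr19:41380001-41390000, was covered at 5.43%, 2.18%, 4.26% and 3.81% in stimulated CH12F3 cells, against 0% in all 3 unstimulated libraries. The difference was 3.92 percentage points (SE 0.793), with a limma adjusted p of 0.729; groups that do not overlap in this direction made up 0.914% of bins in the genome. The limit at rank 20000 sets this contrast: the same peak, at chr19:41387832-41388985, had folds of 8.86, 8.48, 6.80 and 6.33 and ranks of 12150 to 19387 in stimulated cells, against folds of 5.42, 5.79 and 6.32 and ranks of 20522 to 25549 in unstimulated cells. With 40000 top peaks per library the difference was -0.28, and with all deposited peaks -0.91.

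The other Rad21 bins of CH12F3 cells differed less. In the bin of the constant site, chr19:41390001-41400000, coverage was 4.93%, 5.78%, 7.15% and 4.21% in stimulated and 6.25%, 4.28% and 4.88% in unstimulated CH12F3 cells, with overlapping groups. In chr19:41450001-41460000 it was 7.29%, 11.9%, 12.2% and 7.47% in stimulated and 3.74%, 8.74% and 8.15% in unstimulated CH12F3 cells. Over the whole region top Rad21 peaks covered 1.37 ± 0.207% in stimulated (SD, n = 4) and 0.876 ± 0.116% in unstimulated CH12F3 cells (SD, n = 3). A two-sided exact permutation test gave p = 0.0571, which is the lowest value possible with 4 and 3 libraries, and 0.2 after adjustment over 7 comparisons. All 4 stimulated libraries lay above all 3 unstimulated ones, but the sign turned with 40000 top peaks (-0.239) and with all deposited peaks (-0.0773).

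For NIPBL in CH12F3 cells top peaks covered little of the region, whereas all deposited peaks covered 14.8% of it on average in stimulated and 17.2% in unstimulated CH12F3 cells, beside 14.6% in stimulated and 20.7% in unstimulated spleen. The single bin that passed the filter, chr19:41330001-41340000, was covered at 1.82% and 0% in stimulated cells, against 12.6% and 0% in unstimulated cells, and was not called by limma (adjusted p = 0.977; 0% of 12315 bins in the genome were called lower and 0% higher, and 0 bins of the region had an unadjusted p under 0.05). Over the region, coverage was 0.495% and 0% in stimulated cells and 1.53% and 0.171% in unstimulated cells (exact permutation p = 0.667, where 2 against 2 libraries allow no less than 0.333). The difference was -0.605 percentage points, and 0.0762 without unstimulated replicate 1. The top peaks of these libraries differed in width: they covered 7.70 and 5.13 Mb of the genome in stimulated cells, against 17.0 and 5.35 Mb in unstimulated cells. In both groups the peak names of replicate 2 give a control and those of replicate 1 give none; the part of either in the result was not tested. Within each of these 2 sets the stimulated library was covered less than the unstimulated one, and with the set as a block, an analysis added after the values were seen, again 0 bins were called.

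In i3CBEs the 3 constant Rad21 sites of the region were present, and the bins of 2 of them had lower coverage in every library, although neither was called. Coverage of chr19:41450001-41460000 was 2.74%, 4.33% and 4.32% in i3CBEs, against 7.29%, 11.9%, 12.2% and 7.47% in stimulated CH12F3 cells, a difference of -5.91 percentage points (SE 1.58; limma adjusted p = 0.142). Coverage of chr19:41390001-41400000 was 2.87%, 1.72% and 1.51% in i3CBEs, against 4.93%, 5.78%, 7.15% and 4.21% in stimulated CH12F3 cells, a difference of -3.48 (SE 0.850; limma adjusted p = 0.120); with 10000 top peaks the sign of this difference turned, to 0.478. In both bins every i3CBEs library lay below every CH12F3 library, as did 24.4% of bins in the genome. In the bin of the remaining constant site, chr19:41360001-41370000, the groups overlapped, with a difference of -0.645 (SE 0.612; limma adjusted p = 0.470), and its peak was 303, 296 and 268 bp wide in i3CBEs, against 452, 256, 360 and 346 bp in stimulated CH12F3 cells. No bin of the 5 that passed was called (0.0644% of 21752 bins in the genome were called lower and 0.0138% higher), and 3 had an unadjusted p under 0.05.

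Over the whole region top Rad21 peaks covered 0.698 ± 0.167% in i3CBEs (SD, n = 3) and 1.37 ± 0.207% in stimulated CH12F3 cells (SD, n = 4), with a two-sided exact permutation p of 0.0571, the smallest possible, and 0.2 after adjustment. Besides the main chromosomes, the i3CBEs lists named 10 or 11 further sequences, and every other list named 1; the part of this in the result was not tested. Top peaks covered less of the whole genome too, 5.53, 5.75 and 6.31 Mb in i3CBEs, against 10.5, 8.30, 10.7 and 7.54 Mb in stimulated CH12F3 cells. Set against its own genome coverage, the region stood at 2.43, 3.79 and 3.19 times the genome in i3CBEs, against 3.29, 4.59, 3.94 and 3.91 times in stimulated CH12F3 cells, and these ranges overlapped. A small site, chr19:41333116-41333519, had a Rad21 top peak in 2 of 3 i3CBEs libraries and in 0 of 4 stimulated CH12F3 libraries, and in 1 unstimulated splenic library; its bin was covered at 0%, 3.52% and 1.74% in i3CBEs and 0% in stimulated CH12F3 cells (limma adjusted p = 0.230).

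Spleen was set beside CH12F3 with the same stimulation state, although the splenic libraries were among those that chose the region, so these calls are no independent evidence, and the central bin gets no test. Stimulation itself differed between them (48 h against 24 h, and TGF-β in CH12F3 only). A bin at 0% in every CH12F3 library passed the filter through spleen alone, where it is high. Among the bins counted below, this held for Rad21 in chr19:41440001-41450000, and in unstimulated cells in chr19:41380001-41390000. In unstimulated cells it also held for Rad21 in the bins that start at 41400001, 41420001, 41430001 and 41460001. For NIPBL it held in chr19:41400001-41410000 and the bin that starts at 41420001 in unstimulated cells. In stimulated cells it held for NIPBL in the bins that start at 41420001 and 41450001. Nothing is read from the calls, p-values or overlap of such bins, or from counts that include them. For Rad21, 3 of the 9 other bins that passed were called higher in unstimulated spleen than in unstimulated CH12F3 cells, where 10% of 24197 bins in the genome were. Coverage of chr19:41440001-41450000 was 11.6%, 42.0% and 27.1% in spleen and 0% in all 3 CH12F3 libraries (difference 26.9, SE 7.28; limma adjusted p = 0.0392). Coverage of chr19:41380001-41390000 was 12.6%, 12.7% and 4.51% in spleen and 0% in CH12F3 (difference 9.96; adjusted p = 0.0225). Coverage of chr19:41450001-41460000 was 18.3%, 17.5% and 23.5% in spleen and 3.74%, 8.74% and 8.15% in CH12F3 (difference 12.9; adjusted p = 0.0247). The count fell to 0 without CH12F3 replicate 1 or 3, and to 1 without replicate 2.

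After stimulation 1 of 5 Rad21 bins was called higher in spleen (2.9% of 23000 bins in the genome), again chr19:41440001-41450000, with 4.76%, 6.74% and 4.46% in spleen and 0% in all 4 CH12F3 libraries (difference 5.32, SE 0.820; limma adjusted p = 0.0269). Leaving out stimulated CH12F3 replicate 1, 2 or 3 ended this call, as did adding the replicate number as a block. Leaving out splenic replicate 2 did not. No bin of a constant site was called by limma between stimulated spleen and stimulated CH12F3 cells. Coverage of chr19:41360001-41370000 was 2.92%, 6.17% and 4.23% in spleen and 4.52%, 2.56%, 3.60% and 3.46% in CH12F3 cells (difference 0.91, SE 1.14, limma adjusted p = 0.680). In the bins that start at 41390001 and 41450001 the differences were 1.88 and -2.94 (limma adjusted p = 0.623 and 0.588). Between unstimulated spleen and unstimulated CH12F3 cells the same bins differed by 3.55, 4.66 and 12.9, and the last was called, as given above.

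For NIPBL, none of the 6 other bins was called between unstimulated spleen and unstimulated CH12F3 cells by limma (0% of 16556 bins in the genome were called in each direction). This count rested on 1 library: without CH12F3 replicate 1, 1439 of 13952 bins were called higher and 41 lower, among them 1 bin of the region, chr19:41330001-41340000, as higher (difference 13.4; limma adjusted p = 0.0459). With all libraries, 1 of the 6 bins, chr19:41400001-41410000, had an unadjusted p under 0.05, and 4 were higher in spleen without overlap (13.1% in the genome). That bin and the bin that starts at 41420001 are among the 4. Both passed the filter through spleen alone, so nothing is read from these counts. The bin chr19:41400001-41410000 was covered at 21.7%, 22.1% and 12.9% in spleen and 0% in both CH12F3 libraries (difference 18.9, SE 3.78; adjusted p = 0.119). Between stimulated spleen and stimulated CH12F3 cells, 1 of 3 other bins was called higher, where 20.3% of 16999 bins in the genome were. It was chr19:41330001-41340000, with 12.5%, 13.0% and 12.4% in spleen and 1.82% and 0% in CH12F3 (difference 11.7, SE 1.11; limma adjusted p = 0.00691). Without CH12F3 replicate 2, whose list names a control while the splenic NIPBL lists name none, this difference was 10.8. With all deposited peaks it was -6.92. Whether the effect of stimulation differed between spleen and CH12F3 in this region was not tested.

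Just outside the region, the bin chr19:41310001-41320000 was covered by Rad21 top peaks at 1.70%, 0% and 0% in stimulated spleen and 2.80%, 3.96% and 1.47% in unstimulated spleen, and at 4.71% in 1 of 4 stimulated CH12F3 libraries, above every splenic value; chr19:41490001-41500000 was covered only in unstimulated splenic replicate 2, at 1.31%. NIPBL top peaks covered neither bin in any library. Elsewhere in the genome, the bins whose coverage over all 26 libraries followed the central bin most closely were chr7:133560001-133570000 (Pearson r = 0.964), chrX:156080001-156090000 (r = 0.951) and chr11:118000001-118010000 (r = 0.940), of 28107 bins covered in 6 or more libraries. In each of these, mean Rad21 coverage was 0% in stimulated spleen, i3CBEs and both CH12F3 groups, against 18.8%, 13.6% and 20.1% in unstimulated spleen. Mean NIPBL coverage of the same 3 bins was 3.58%, 1.79% and 12.3% in stimulated spleen, against 14.3%, 11.2% and 21.8% in unstimulated spleen. The libraries that make these correlations are those that chose the central bin, and bins of one library share its peak calling.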

How the data were processed

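The 26 peak lists, 1 per ChIP library, were the starting point. Per the submitters' processing notes, Bowtie2, MACS2 and mm9 were used; their versions were not given in these sources. In the deposited lists each peak has a fold enrichment (a ratio), a −log10 p-value, a −log10 q-value and a score from the authors; the score was not used. Groups follow the titles and source names: for CH12F3 and i3CBEs Rad21 samples 1 further label field names splenic B cells. No label says that replicates came from separate animals or cultures; p-values here then reflect sample-to-sample spread, possibly technical.

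The region, its members and the gene lists were chosen with earlier results of these data known. On 21 main chromosomes the 20000 peaks of highest −log10 p per library were kept, and the percent covered of 264200 bins of 10 kb was computed; bins with coverage in 2 or more of the libraries compared entered the tests of limma (3.58.1, with a mean-variance trend, in R 4.3.3), with Benjamini-Hochberg adjustment over all bins and a threshold of 0.05. For coverage of the whole region, a two-sided exact permutation test over libraries was run. The procedure was tested on simulated data. Bins with a top peak, sites found in 2 or more libraries, the bins beside the region and the 3 bins most like the central one are named by rule. Same-numbered libraries deviated together only for Rad21 in CH12F3 cells (correlations 0.376 to 0.651). Some libraries of different number did so as strongly there, and others deviated in opposite ways. Stimulated replicate 1 gave 0.438 with unstimulated replicate 3 and -0.620 with replicate 2, and stimulated replicate 4 gave 0.607 with unstimulated replicate 2. The numbers are therefore not shown to mark pairs. The titles give no number for NIPBL CH12F3 replicate 1. Genes of B cell receptor signalling other than Pik3ap1 were not analysed here, since no mm9 annotation was used. Tables were built with pandas 2.3.3 and scipy 1.17.1 in Python 3.11.15.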

Additional observations from a re-analysis of the deposited data

Results flagged for a closer look

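In chr19:41460001-41470000, 1 of 4 stimulated CH12F3 Rad21 libraries stood apart from the others: replicate 2 was covered at 2.14%, the other 3 at 0%. In this way 6 values of the group were looked at, the coverage of the region and of each bin with a top peak, and chance alone marks about 1 in 20. The value comes from the end of a peak at chr19:41458816-41460214, within the site chr19:41458173-41460277, which has a top peak in 15 of 16 Rad21 libraries.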

How the results depend on the processing

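The number of bins called in the region moved with most settings. NIPBL in spleen (2 lower) gave 1 with 10000 top peaks, 0 with 40000, with all deposited peaks, with peaks of −log10 q 5 or more and with the replicate block, and 1 to 2 without each library. Rad21 in spleen (1 lower) gave 0 under those 4 peak settings and with bins covered in 1 or more libraries, and 0 to 2 without each library. NIPBL of unstimulated spleen against CH12F3 (0) gave 1 with the q threshold and 0 to 1 without each library, 1 without CH12F3 replicate 1. NIPBL of stimulated spleen against CH12F3 (1 higher) gave 0 with 40000 peaks, all peaks or the q threshold, and 1 to 2 without each library. Rad21 of unstimulated spleen against CH12F3 (3 higher) gave 5 with all peaks, 0 with the q threshold and 0 to 4 without each library. Rad21 of stimulated spleen against CH12F3 (1 higher) gave 0 under the 4 peak settings, with bins covered in 1 or more libraries and with the replicate block, and 0 to 1 without each library. For both CH12F3 stimulation comparisons and for i3CBEs the count was 0 in all settings run. Coverage of the whole region turned in sign for NIPBL in CH12F3 (-0.605) with the q threshold (0.951) and without unstimulated replicate 1 (range without each library -1.29 to 0.0762), for Rad21 in CH12F3 (0.490) with 40000 peaks (-0.239), all peaks (-0.0773) and the q threshold (-0.0392), and for NIPBL of stimulated spleen against CH12F3 (1.68) with all peaks (-0.173) and the q threshold (-1.26). Single bins turned in sign for Rad21 in CH12F3 at 41380001 (40000 peaks -0.28, all peaks -0.91, q threshold -0.0733), for i3CBEs at 41390001 (10000 peaks 0.478), and at 41330001 for NIPBL of unstimulated spleen (all peaks -1.92) and stimulated spleen (all peaks -6.92, q threshold -1.37) against CH12F3; the cause was not tested. Of the sites found in 2 or more libraries, 6 of 6 NIPBL and 8 of 10 Rad21 sites remained when a peak had to span at least 50% of the site.

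With the replicate number as a block the count was 1 for Rad21 in spleen, 0 for Rad21 in CH12F3 and for i3CBEs, and 2 for Rad21 of unstimulated spleen against CH12F3; replicate 4 of stimulated CH12F3 has no partner. Coverages, folds and shared bases without stimulated splenic Rad21 replicate 2 were also added after seeing the data, and no mean difference turned in sign. Same-numbered libraries deviated together only for Rad21 in CH12F3, where some libraries of different number did so as strongly. For NIPBL in CH12F3, a replicate block on the library set (unnumbered, or numbered 2), added after seeing the data, gave 0. No paired analysis was possible for NIPBL of spleen against CH12F3 because their titles share fewer than 2 replicate numbers. Depth is unknown in all lists, so an absent top peak says only that none ranked within 20000.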
